A study of Rattus norvegicus with 9 samples.

Results

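The mevalonate pathway and SREBP2 target genes described here were 7 rat genes, Hmgcs1, Mvd, Idi1, Fdps, Sqle, Insig1 and Srebf2, taken by their symbols from the gene tables. All 7 were found among the 16730 gene names that both deposited tables shared, and all 7 passed the filter on low counts in every comparison. Livers of male Sprague-Dawley rats were sequenced in 3 groups of 3. The normal control group received saline. The model group received CCl4, a hepatotoxin, by gavage at 2 ml/kg as an oil solution, given repeatedly over 9 weeks to bring on liver fibrosis. The TA group received the same CCl4 course and then tormentic acid (TA), a plant triterpene, at 3 mg/kg for 6 weeks. All rats were fasted for 12 h before the livers were taken. The labels call the model and TA tissue a hepatitis stage liver, they mark the TA rats TA1, TA2 and TA3 without a dose, and what the model rats received during the 6 weeks of TA is not given in the sources used here. CCl4 injury is a toxic model with no genetic lesion, and each library was bulk RNA from a whole liver piece. The labels number rats 1 to 3 in each group, and p-values measure only the spread between these livers.

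The mevalonate pathway turns acetyl-CoA into isoprenoids and, by way of squalene, into cholesterol, and the liver is one of its main sites. Its genes are switched on together by SREBP2, a membrane-bound transcription factor that SCAP carries out of the endoplasmic reticulum for cleavage when sterols are low. INSIG proteins hold SCAP back, and INSIG1 is itself a target, so that the pathway limits its own activity.

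Because these genes are textbook targets of 1 factor, the DNA just upstream of each was read from RefSeq (GRCr8), as the 250 bases before the annotated start site on the strand of the gene. A window was given for 6 of the 7 genes, not for Sqle. The box CCAAT, bound by NF-Y, a partner of SREBP2, was searched on both strands, as were the GC box GGGCGG and the sterol regulatory element core TCACNCCAC. The windows of Hmgcs1, Idi1 and Fdps are shown because these were the genes with the clearest differences below. That of Srebf2 is shown because it alone matched the sterol regulatory core without its last base. Other forms of the element were not searched. Capitals mark each CCAAT box, which reads ATTGG when it lies on the opposite strand.
Hmgcs1, chr2:53382054-53382303, plus strand: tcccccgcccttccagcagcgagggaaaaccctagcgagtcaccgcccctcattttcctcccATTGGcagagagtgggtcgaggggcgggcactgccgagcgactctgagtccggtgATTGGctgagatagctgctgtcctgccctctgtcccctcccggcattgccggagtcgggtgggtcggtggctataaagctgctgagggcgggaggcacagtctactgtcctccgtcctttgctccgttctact
Idi1, chr17:66547525-66547774, minus strand: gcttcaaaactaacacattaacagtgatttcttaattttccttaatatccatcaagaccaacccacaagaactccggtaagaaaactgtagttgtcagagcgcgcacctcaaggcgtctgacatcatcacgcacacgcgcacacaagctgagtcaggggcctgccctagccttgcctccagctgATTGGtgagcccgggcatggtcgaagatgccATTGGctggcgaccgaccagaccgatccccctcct
Fdps, chr2:176804817-176805066, minus strand: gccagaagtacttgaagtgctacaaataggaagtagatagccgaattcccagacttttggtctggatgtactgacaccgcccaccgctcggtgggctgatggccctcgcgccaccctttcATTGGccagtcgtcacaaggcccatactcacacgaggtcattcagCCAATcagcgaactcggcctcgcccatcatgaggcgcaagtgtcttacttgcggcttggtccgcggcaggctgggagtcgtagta
Srebf2, chr7:115543057-115543306, plus strand: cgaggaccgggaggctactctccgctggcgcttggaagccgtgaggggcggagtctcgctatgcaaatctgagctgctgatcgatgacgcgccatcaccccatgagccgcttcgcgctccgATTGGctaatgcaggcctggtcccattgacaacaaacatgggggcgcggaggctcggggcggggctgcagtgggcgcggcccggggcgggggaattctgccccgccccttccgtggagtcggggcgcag

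All 6 windows held a CCAAT box, against 34% of 33469 rat windows of the same length. Hmgcs1, Idi1 and Fdps each held 2 and Mvd, Insig1 and Srebf2 each held 1. The GC box was in 5 of 6 windows, all but that of Idi1, against 30.5% of all windows. The sterol regulatory core TCACNCCAC was in 0 of 6 windows and in 0.974% of all windows. A form shorter by its last base, TCACNCCA, searched after the sequences had been seen, matched once, in Srebf2 as TCACCCCA from 156 to 149 bases before the start site, and was in 3.24% of all windows. No matches overlapped. These are matches of letters and not measured binding sites, and the plot of motif positions gives their places.

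**Figure D1:**
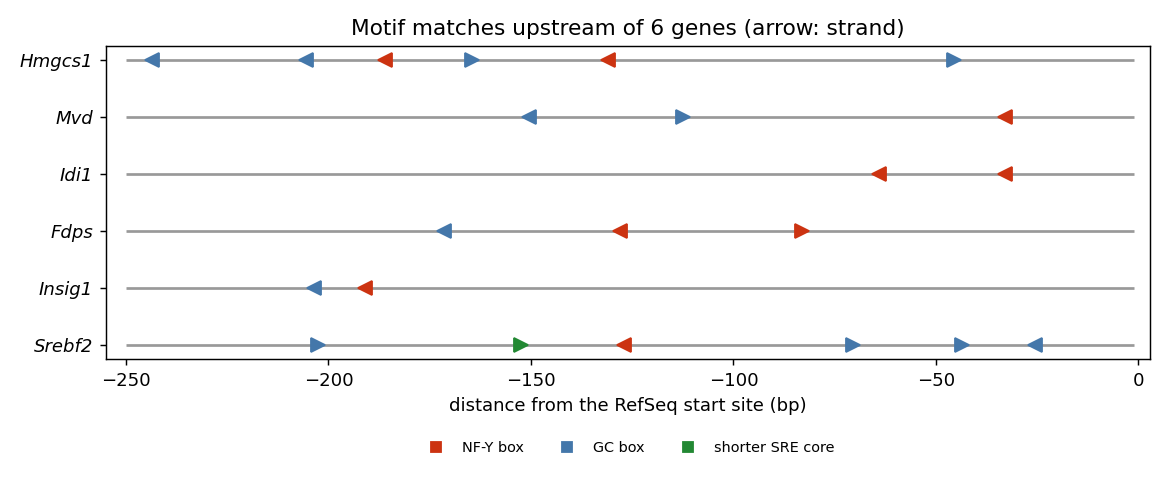
Matches of the NF-Y box (red), the GC box (blue) and the shorter sterol regulatory core (green) along the 250 bases upstream of the RefSeq start site of 6 genes, with the distance in bp on the horizontal axis and the strand shown by the direction of each arrow. Every window holds at least 1 NF-Y box and Srebf2 alone holds the shorter core.

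The libraries held 13156735 to 18090405 counts. Model rat 1 stood apart: its scaling factor by TMM, which corrects for differences in RNA make-up, was 1.72 against 0.819 to 1.166 in the other 8, and its 50 most abundant genes took 27.85% of counts against 40.4% to 45.72%. The 10 hepatocyte markers, all detected, summed to 136800 to 176000 CPM (counts scaled to library size) in the normal livers, 118900 to 192400 in the TA livers, and 37910, 108200 and 120300 in the 3 model livers, model rat 1 being lowest. Markers of stellate cells and myofibroblasts, of which 9 of 10 were tested, summed to 203.2 to 296.4 CPM in the normal livers, 1182 to 12430 in the model livers and 670.3 to 1182 in the TA livers. In bulk liver, fewer cells of a type and less RNA per cell cannot be told apart, and the part of cell make-up in the results below was not tested.

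Between genes, levels were compared per length, in the deposited FPKM (fragments scaled to exon length and to mapped reads). Hmgcs1, the cytosolic synthase that makes HMG-CoA, had a median of 102.9 FPKM over the 9 livers and was first or second of the 7 in each. Insig1 followed with a median of 70.44 FPKM, and ranged from 21.19 to 241. Fdps, the farnesyl diphosphate synthase, stood at a median of 35.02 FPKM. Srebf2, Idi1 and Sqle had medians of 10.48, 7.869 and 6.921 FPKM, and their ranges of 6.951 to 16.04, 4.421 to 23.2 and 3.19 to 22.28 overlapped. Mvd, the decarboxylase that closes the mevalonate steps, was lowest with a median of 3.494 FPKM, and was sixth or seventh of the 7 in each liver.

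Within a gene, levels are given as CPM after TMM scaling over all 9 libraries, always in the order of rats 1, 2 and 3. Hmgcs1 measured 508.1, 388 and 390 CPM in the normal livers, 77.23, 106.1 and 229.6 in the model livers and 710, 406 and 433.6 in the TA livers. The model livers lay below all 6 others, while the normal and TA livers overlapped.

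Mvd measured 7.619, 7.7 and 6.856 CPM in the normal livers, 9.438, 5.085 and 2.69 in the model livers and 13.24, 4.756 and 4.704 in the TA livers. The normal livers were close together, with a highest to lowest ratio of 1.123, whereas the model and TA livers spanned 3.509-fold and 2.815-fold and overlapped with each other. Idi1, the isomerase that interconverts the basic isoprenoid units, measured 18.17, 26.53 and 27.01 CPM in the normal livers, 15.97, 13.36 and 11.82 in the model livers and 65.94, 19.45 and 25.76 in the TA livers. The model livers were again below all 6 others, and TA rat 1 was far above TA rats 2 and 3.

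Fdps, whose product feeds sterols and protein prenylation alike, measured 112, 131.5 and 127.3 CPM in the normal livers, 63.33, 70.67 and 78.08 in the model livers and 241.3, 118 and 146.7 in the TA livers. It had the tightest model group of the 7 genes, with a ratio of 1.233 between the highest and the lowest liver, and that group lay below all 6 others. Sqle, the epoxidase that commits squalene to sterols, measured 10.38, 17.08 and 24.42 CPM in the normal livers, 18.17, 19.36 and 12.1 in the model livers and 61.43, 20.47 and 20.61 in the TA livers. Normal and model livers overlapped for Sqle, and the TA livers lay above every model liver.

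Insig1 had the widest range over the 9 livers, at 200, 682.6 and 197.4 CPM in the normal livers, 29.81, 140.4 and 192.4 in the model livers and 555.4, 224.1 and 186.2 in the TA livers. Its highest value came from normal rat 2 and its lowest from model rat 1, while model rat 3 came close to normal rats 1 and 3. Srebf2, which encodes SREBP2 itself, had a narrower range, at 41.61, 52.93 and 68.73 CPM in the normal livers, 39.08, 50.2 and 47.28 in the model livers and 81.33, 56.22 and 57.42 in the TA livers. Its TA livers lay above its model livers, and its normal livers overlapped with both.

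**Figure D2:**
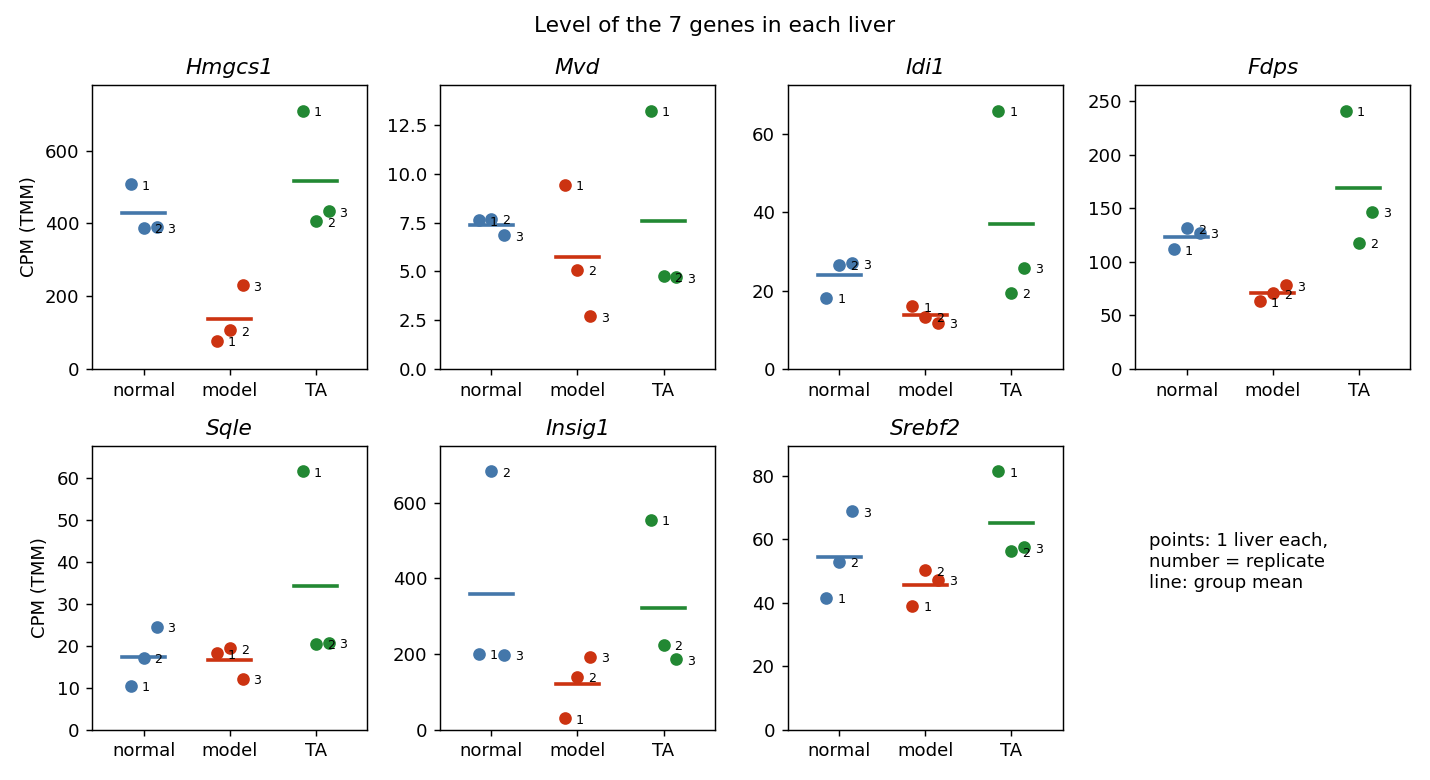
CPM after TMM scaling of the 7 genes in each of the 9 livers (points, numbered by replicate; the vertical axes start at 0 and differ between panels; lines are group means). TA rat 1 is the highest TA liver in all 7 panels, and the model livers lie below all others for Hmgcs1, Idi1 and Fdps.

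Model VS Normal asked what CCl4 fibrosis did to the pathway. Hmgcs1 was 3.08-fold lower in the model group, at 137.6 ± 80.9 CPM against 428.7 ± 68.79 (SD, n = 3). Idi1 and Fdps were 1.72-fold and 1.73-fold lower, and Insig1 was 2.95-fold lower with a wide error. The fitted log2 fold changes of all 7 genes were below 0 after TMM scaling, with a median of -0.78 beside 0.02 over all 12730 genes tested. That of Sqle was -0.04 ± 0.35 (SE), those of Mvd and Srebf2 were -0.33 ± 0.46 and -0.24 ± 0.26, and scaled by library totals alone these 3 turned to 0.62, 0.43 and 0.37, while the median of all genes moved from 0.02 to 0.65. On that scale Hmgcs1, Insig1, Fdps and Idi1 stood at -1.11, -1.13, -0.18 and -0.11, all 7 genes thus below the median of all genes.

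By edgeR's quasi-likelihood test with Benjamini-Hochberg adjustment, 0 of the 7 genes had an adjusted p under 0.05, where 7.87% of all genes did. The closest were Hmgcs1 (log2 fold change -1.62 ± 0.46 SE, adjusted p = 0.0661), Fdps (-0.79 ± 0.23, adjusted p = 0.0763) and Idi1 (-0.78 ± 0.26, adjusted p = 0.0971). DESeq2 on the same genes gave these 3 adjusted p of 0.00244, 0.00187 and 0.0465, so that the call depended on the test. By the thresholds of the study, which ask for an unadjusted p under 0.05 and at least a doubling or halving (log2 fold change past 1 either way), Hmgcs1 alone of the 7 was lower, beside 5.55% of all genes that were lower. After TMM scaling the model livers lay below all normal livers for 4 of 7 genes (Hmgcs1, Idi1, Fdps and Insig1), beside 17.9% of all genes. In the deposited FPKM the groups stayed apart for Hmgcs1 only. There model rat 1 lay above normal rat 1 for Idi1 (9.77 against 5.414) and Fdps (36.18 against 31.17). Model rat 3 lay above normal rat 1 for Insig1 (83.58 against 69.24). For single genes the exact permutation test of 3 against 3 livers, on log2 CPM after TMM scaling, cannot go below 0.1 two-sided. Hmgcs1, Idi1, Fdps and Insig1 reached that value.

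The low level of Hmgcs1 was present without model rat 1, the liver with the fewest hepatocyte marker counts, at a log2 fold change of -1.36. Idi1 and Fdps stood at -0.93 and -0.74 without that liver, and Sqle and Srebf2 at -0.14 and -0.16. Mvd moved from -0.33 to -0.93. Model rat 1 was the lowest model liver for 4 of the 7 genes, and the highest for Mvd and Idi1. The median over the 7 genes of the log2 difference from the normal mean was -0.56 in model rat 1, -0.8 in model rat 2 and -0.66 in model rat 3. That over the hepatocyte markers was -2.4, -0.53 and -0.46 in these livers. The part of cell make-up in these values was not tested. For Insig1 the size of the difference hung on single livers of both groups. Its log2 fold change of -1.56 ± 0.75 became -0.72 without normal rat 2 and -1.14 without model rat 1. Leaving out model rat 3 gave Hmgcs1 a log2 fold change of -2.22 (adjusted p = 0.0125, edgeR), and Insig1 then also passed the thresholds of the study, at -2.08.

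TA VS Model asked whether the pathway differed after TA, and it shares the model livers with the comparison above, so the same low model values enter both. Hmgcs1 was 3.73-fold higher in the TA group, at 516.6 ± 168.1 CPM (SD, n = 3). Idi1 was 2.67-fold, Insig1 2.65-fold, Fdps 2.36-fold and Sqle 2.04-fold higher, and Srebf2 was 1.41-fold higher. All 7 fitted log2 fold changes were above 0 after TMM scaling, with a median of 1.24 beside 0.00 over 12781 genes, although Mvd, at 0.37 ± 0.59 (SE), turned to -0.21 when library totals alone were used, under which the median of all genes moved to -0.48. On that scale Hmgcs1 stood at 1.55, Idi1 at 0.93 and Fdps at 0.81, and 1 of the 7 genes passed the thresholds of the study given above.

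In this comparison 0 of 7 genes had an adjusted p under 0.05, and neither did any other gene, the share being 0% of 12781, with 533 genes higher and 1466 lower at an unadjusted p under 0.05. By the study's thresholds Hmgcs1 (log2 fold change 1.90 ± 0.50 SE, adjusted p = 0.25), Fdps (1.24 ± 0.34, adjusted p = 0.252) and Idi1 (1.42 ± 0.46, adjusted p = 0.264) were higher. These were 3 of 7 genes, beside 2.11% of all genes. Sqle missed the threshold at 1.03 ± 0.47 (adjusted p = 0.332), as did Insig1 at 1.41 ± 0.70 and Srebf2 at 0.50 ± 0.25 (adjusted p = 0.363 for each). DESeq2 gave 541 genes with an adjusted p under 0.05, with Hmgcs1 (0.00544) and Fdps (0.0173) among them. After TMM scaling the TA livers lay above all model livers for 5 of 7 genes (Hmgcs1, Idi1, Fdps, Sqle and Srebf2), beside 10.8% of all genes. The exact permutation p of each was 0.1, the smallest possible. In the deposited FPKM the groups stayed apart for Hmgcs1 only. There model rat 1 lay above TA rat 2 for Idi1 (9.77 against 6.184), Fdps (36.18 against 35.02), Sqle (11.47 against 6.711) and Srebf2 (13.4 against 10.02).

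**Figure D3:**
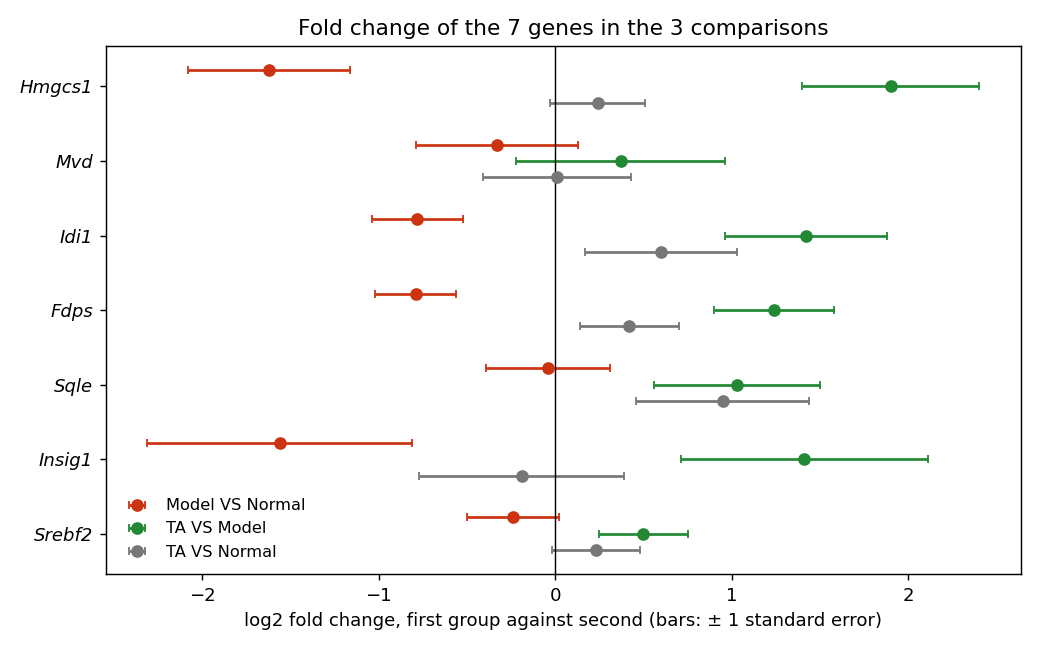
Fitted log2 fold change of the 7 genes (points) with 1 standard error to each side (bars) in Model VS Normal (red), TA VS Model (green) and TA VS Normal (grey), from 3 livers per group. The green points run from 0.37 for Mvd to 1.90 for Hmgcs1, and the grey points lie between -0.19 and 0.95.

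A single liver, TA rat 1, carried much of the height of the TA group. It was the highest of the 3 TA livers for 7 of 7 genes, where it was the highest for 29.4% of 12946 genes, and the highest of all 9 livers for 6 of 7, where it was so for 5.94% of genes. It exceeded the mean of TA rats 2 and 3 by 2.99-fold for Sqle, 2.92-fold for Idi1, 2.8-fold for Mvd, 2.71-fold for Insig1, 1.82-fold for Fdps, 1.69-fold for Hmgcs1 and 1.43-fold for Srebf2. Its hepatocyte markers summed to 121200 CPM, between those of the other two TA livers, and its TMM factor was 0.9889. Macrophage markers moved with it: TA rat 1 was the highest TA liver for 10 of 10 of them, and they summed to 844.4 CPM in it against 392.9 and 453.5 in TA rats 2 and 3, with medians of the log2 difference from the normal mean of 1.12, 0.01 and 0.02. It was also the highest TA liver for 4 of 9 stellate cell and myofibroblast markers and 4 of 6 biliary markers. The part of these cells in the levels of the 7 genes was not tested.

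Without TA rat 1, TA VS Model left 1 of the 7 genes past the study's thresholds, Hmgcs1 at a log2 fold change of 1.61. Fdps stood at 0.90 and Idi1 at 0.71. Insig1, Srebf2 and Sqle were at 0.76, 0.32 and 0.31, and Mvd turned to -0.29. With model rat 1 also left out, an alternative added after the data were seen, Hmgcs1 stood at 1.31, Idi1 at 0.83 and Fdps at 0.82, and again 1 gene passed. Leaving out model rat 3, TA rat 2 or TA rat 3 instead left 4 of 7 genes past the thresholds.

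TA VS Normal set the treated livers beside those that never received CCl4. None of the 7 genes passed either rule in edgeR, beside 5.25% of 12179 genes by the study's thresholds and 0.263% by adjusted p. At an unadjusted p under 0.05 the count was also 0 of 7, as was the count by adjusted p in DESeq2. The groups overlapped for all 7 genes, beside 14.8% of all genes whose groups did not. Sqle had the largest difference, 1.94-fold higher in the TA group at a log2 fold change of 0.95 ± 0.49 (SE, adjusted p = 0.627), followed by Idi1 at 0.60 ± 0.43 and Fdps at 0.42 ± 0.28. Hmgcs1, Srebf2 and Mvd stood at 0.24 ± 0.27, 0.23 ± 0.25 and 0.01 ± 0.42, and Insig1 at -0.19 ± 0.58. These errors leave room for differences in either direction.

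In TA VS Normal same-numbered livers deviated together, and with the replicate block 203 genes passed the adjusted threshold in place of 32, with 0 of the 7 genes among them. Without TA rat 1 the differences were smaller for Sqle (0.21) and Fdps (0.07), those of Idi1 (-0.11) and Hmgcs1 (-0.06) turned in sign, and Mvd and Insig1 were at -0.67 and -0.85. TA rats 2 and 3 averaged 0.979 of the normal mean for Hmgcs1, 0.946 for Idi1, 1.07 for Fdps, 1.19 for Sqle and 1.04 for Srebf2. For Mvd and Insig1 they averaged 0.64 and 0.57 of it.

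The rest of the pathway was read from lists drawn up with earlier results known. Of the mevalonate enzymes Acat2, Mvk and Pmvk, which make acetoacetyl-CoA and phosphorylate mevalonate, 0 passed either rule in any comparison.

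Of the 12 genes from squalene to cholesterol, 7 were higher in TA VS Model by the study's thresholds, with a median log2 fold change of 1.34 over the 12, beside 2.11% of all genes that were higher. Fdft1, which makes squalene from the product of Fdps, stood at 1.34 ± 0.32 (SE) and did not overlap with the model livers. The others were Cyp51 (1.42), Tm7sf2 (1.44), Msmo1 (1.61), Hsd17b7 (1.38), Sc5d (1.34) and Dhcr7 (1.42), and the count of 7 became 4 without TA rat 1, 0 with model rat 1 also left out, and 3 when library totals alone set the scale. TA rat 1 was the highest TA liver for 12 of these 12 genes too. In Model VS Normal 4 of the 12 were lower, beside 5.55% of all genes, namely Tm7sf2 (-1.30), Ebp (-1.22), Sc5d (-1.24) and Dhcr7 (-1.12). Lbr, a nuclear envelope protein that also has sterol reductase activity, was higher (1.07), beside 16.6% of all genes that were higher. These 5 genes became 0 of 12 without model rat 1, 2 without normal rat 2, 2 in voom and 1 when library totals alone set the scale.

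**Figure D4:**
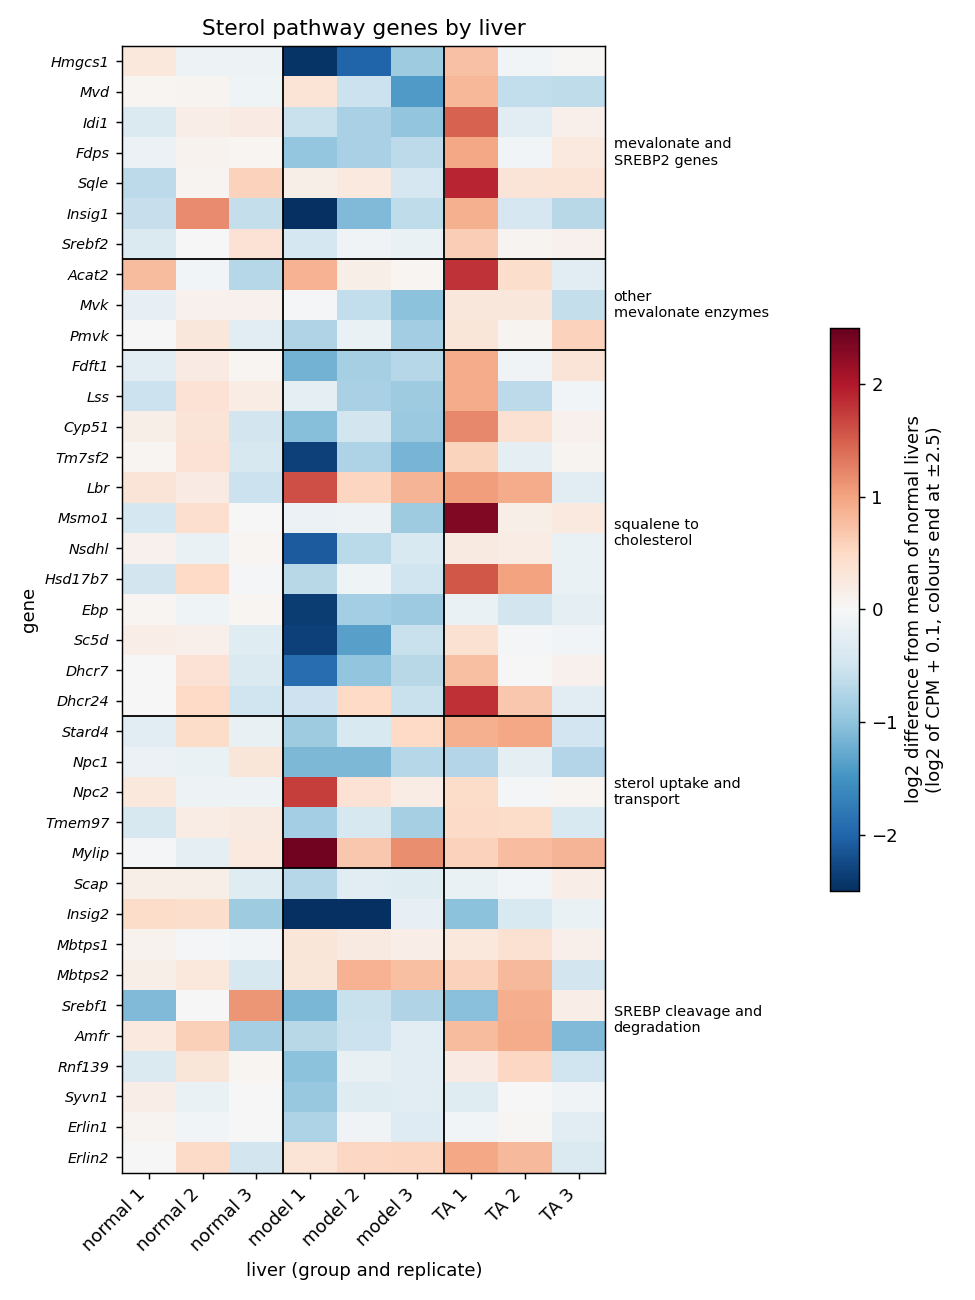
Colour shows the log2 difference of each gene (rows) in each liver (columns) from the mean of the normal livers, on log2 of CPM + 0.1, red for higher and blue for lower. The column of TA rat 1 is red across the 7 genes, whereas Srebf1 and Insig2 are blue in it.

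Of 10 genes for SREBP cleavage and degradation, 0 passed either rule in any comparison, with a median log2 fold change of 0.36 in TA VS Model, and TA rat 1 was the highest TA liver for 1 of 10, beside the 29.4% of all genes given above. Srebf1, the sister gene that mainly drives fatty acid synthesis, measured 40.02, 86.51 and 184.9 CPM in the normal livers, 39.03, 58.22 and 50.97 in the model livers and 41.45, 162.3 and 96.7 in the TA livers. TA rat 1, the highest TA liver for Srebf2, was thus the lowest for Srebf1.

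Insig2, the second INSIG, measured 391.6, 385.6 and 154.5 CPM in the normal livers, 14.91, 28.69 and 248 in the model livers and 139.9, 220 and 256.1 in the TA livers. Model rats 1 and 2 lay far below every other liver, and model rat 3 within the normal range. Its log2 fold change in Model VS Normal was -1.66 ± 0.97 (SE, adjusted p = 0.291). Scap, the SREBP escort, stood at a log2 fold change of -0.41 ± 0.25 (SE) between model and normal livers and 0.39 ± 0.24 between TA and model livers. Its TA livers, at 72.95, 78.13 and 91.33 CPM, lay above its model livers, at 49.93, 67.28 and 66.33.

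Of 7 tested genes of sterol uptake and transport, 5 had a log2 fold change below 0 in Model VS Normal, with a median of -0.69 over the 7. At an unadjusted p under 0.05, 3 were lower, beside 1297 of all 12730 genes. By the study's thresholds 1 was higher, beside 16.6% of all genes. This was Mylip, an LXR target that encodes a ubiquitin ligase, at a log2 fold change of 1.65 ± 0.48 (SE). It measured 4.102, 3.559 and 4.933 CPM in the normal livers, 22.45, 6.715 and 9.485 in the model livers and 6.228, 7.134 and 7.542 in the TA livers. The model and TA livers all lay above the normal livers, model rat 1 being far the highest, and without model rat 1 the log2 fold change was 0.94 and no gene of this list passed.

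Of 10 genes in the non-sterol isoprenoid branch, 0 passed in any comparison, and their median log2 fold change in TA VS Model was 0.17.

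Of 10 genes of sterol efflux and LXR signalling, 0 passed in TA VS Model. By the study's thresholds that count became 2 in DESeq2, 3 in voom, 2 with library totals and 1 without the filter. It became 7 without model rat 3 and 5 with the replicate block. In Model VS Normal 2 of the 10 were higher by the study's thresholds, close to the 16.6% of all genes that were higher. Another 2 were lower, beside 5.55% of all genes. Abcg1, a cholesterol exporter, was higher at a log2 fold change of 1.86 ± 0.63 (SE), with 53.06, 13.69 and 10.62 CPM in the model livers, and stood at 0.74 without model rat 1. Soat1, a cholesterol acyltransferase, was higher at 2.82 ± 0.83, with 20.95, 4.564 and 2.902 CPM in the model livers, and stood at 1.43 without model rat 1. For both genes model rat 1 was thus far above model rats 2 and 3. The LXR-alpha gene Nr1h3 was lower at -1.18 ± 0.43, or -0.87 without model rat 1 and -0.68 with library totals. Soat2, the acyltransferase of hepatocytes and intestine, was lower at -1.55 ± 0.51, or -1.17 without model rat 1. The count of 4 genes became 2 without model rat 1 or normal rat 2, 1 without normal rat 3 and 7 without model rat 3.

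Markers of several cell types moved beside these values. Of 10 macrophage markers, 6 were higher in the model livers by the same thresholds, beside 16.6% of all genes. Marco was lower (-2.17 ± 0.60), and Clec4f, at -1.50 ± 0.66, lay below all normal livers without passing. Both are markers of resident macrophages. The macrophage markers summed to 346.2 to 510.2 CPM in the normal livers and to 5226, 530.8 and 671.9 in the model livers, model rat 1 being highest. Of the markers of stellate cells and myofibroblasts 8 of 9 tested were higher, and of the biliary markers 6 of 6, with Spp1 counted among both macrophage and biliary markers. Of 7 endothelial markers tested, 2 were higher and 1 was lower, beside 16.6% and 5.55% of all genes, with a median log2 fold change of 0.02. None of 10 hepatocyte markers passed, and their median log2 fold change was -0.84. The model livers lay below all normal livers for 6 of them, beside 17.9% of all genes. The part of these cells in the values above was not tested.

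**Figure D5:**
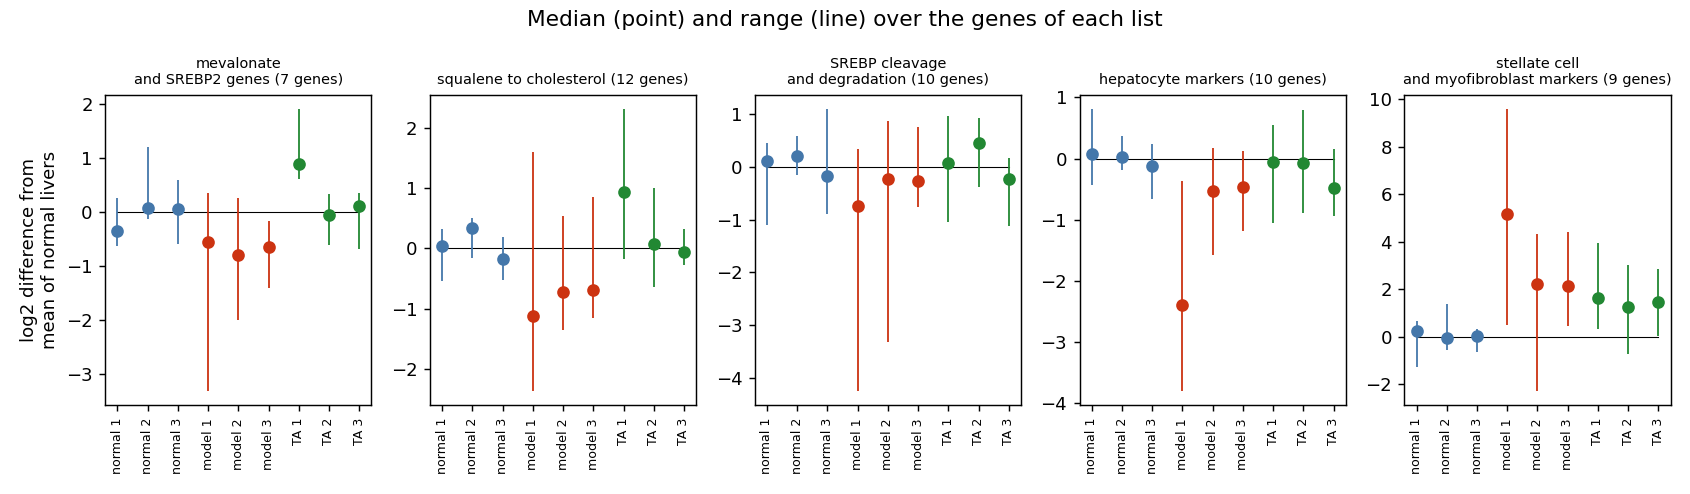
Median (point) and range (line) over each list of the log2 difference from the mean of the normal livers, by liver, for the 7 genes, the 12 genes from squalene to cholesterol, 10 genes of SREBP cleavage and degradation, and hepatocyte and stellate cell markers; the vertical axes differ. The median of the 7 genes is 0.89 in TA rat 1 against -0.07 and 0.11 in TA rats 2 and 3, and hepatocyte markers are lowest, at -2.4, in model rat 1.

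Across the 9 livers, each gene was set beside the mean of the other 6 after standardising log2 CPM, as a description over livers that share groups and scaling. Idi1 and Fdps followed the others most closely, with Pearson correlations of 0.959 and 0.95, then Srebf2 (0.826), Sqle (0.724), Hmgcs1 (0.708), Insig1 (0.635) and Mvd (0.442). Over the 8 livers without TA rat 1 these were 0.894 for Idi1, 0.914 for Fdps, 0.648 for Srebf2, 0.673 for Hmgcs1 and 0.539 for Insig1, whereas Sqle went to 0.275 and Mvd to -0.021. Among genes whose log2 CPM averaged 3 or more, the 10 whose levels were most like the mean of the 7 were Fdft1 (0.952), Cct3 (0.909), Cyb5b (0.901), Map1lc3b (0.9), Msmo1 (0.898), Dlst (0.891), Lpin1 (0.887), Slc25a3 (0.882), Eif4ebp3 (0.881) and Cyp51 (0.872). Fdft1, Msmo1 and Cyp51 are enzymes of the next steps to cholesterol. Without TA rat 1 that of Fdft1 was 0.951 and those of the others ranged from 0.704 to 0.917.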

How the data were processed

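Poly(A) RNA of 9 rat livers was sequenced by the authors as paired-end reads, which were trimmed, mapped with STAR and counted with HTSeq-count per the study's methods, with no versions given in the sources used here. Those methods name hg19 and the submitters' processing notes name mm9 and DESeq2, whereas the gene symbols are those of rat, so that the build behind the deposited counts is unsettled. Reads shared with near-identical copies could be split or lost in counting. The deposited tables held read counts per gene and FPKM, which the authors scaled to length and mapped reads. Columns of fold changes and p-values by the authors were not used. The tables held 16938 and 16948 genes, and the model counts were the same in both for the 16730 shared genes. Of 17156 gene names, 15601 (90.9%) matched RefSeq. Col1a2 and Pecam1 of the marker lists were not analysed here.

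Totals of 13156735 to 18090405 counts per library set the precision. Counts were filtered (filterByExpr), scaled by TMM and tested with edgeR 4.0.16 (R 4.3.3), quasi-likelihood, between the 2 groups compared and without a block, with Benjamini-Hochberg adjustment over all genes. Standard errors were the log2 fold change divided by the root of F. Log2 CPM used a prior count of 2. The call rules were an adjusted p under 0.05, and the study's thresholds (p under 0.05 before adjustment, log2 fold change past 1 either way). Alternatives were DESeq2 1.42.0, voom in limma 3.58.1, other scalings and filters, other forms of the fit, a replicate block, and each library left out. The fit was tested on simulated data.

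Deviations from the group means of same-numbered livers correlated in TA VS Normal (r = 0.256, 0.424 and 0.498). This was seen in these same data, and the labels do not say what a number shares. The fold changes and p-values given for TA VS Normal are from the fit without a block, with the replicate block as an alternative. In Model VS Normal and TA VS Model only the livers numbered 1 correlated, at 0.21 and 0.219, and the other same-numbered pairs stood at 0.00667 or below.

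The 7 genes and all lists were chosen with earlier results of these data known. Named besides were list genes called in any comparison, fixed regulators (Insig2, Scap and Srebf1), and the 10 genes most like the 7. Some genes that this rule names are not reported here. Motif matches were counted on both strands of RefSeq windows of GRCr8.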

Additional observations from a re-analysis of the deposited data

How the results depend on the processing

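Of 343 log2 fold changes of the 7 genes under alternatives, 313 kept their direction and side of the adjusted threshold, 11 came to pass it and 19 turned in sign. The cause was not tested. The counts of genes with 3 livers a group moved widely, so that calls near a threshold are weak.

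In Model VS Normal, 1002 genes passed the adjusted threshold in edgeR, 2654 in DESeq2, 3433 in voom with quality weights, 1980 with library totals and 1757 with all 9 libraries in 1 fit, and 0 to 2537 with 1 liver left out (0 without normal rat 2 or 3, 51 without normal rat 1, 589 without model rat 2 and 2537 without model rat 3). By the study's thresholds the 2818 genes stayed within 1.5 times of that count. Of the 7 genes, 3 passed the adjusted threshold in DESeq2, 3 in voom, 1 with all 9 libraries and 0 to 1 with 1 liver left out, and 2 passed the study's thresholds in DESeq2, without the filter and with the replicate block, and 1 to 2 with 1 liver left out. Signs turned for Sqle in voom (0.37), with library totals (0.62), with the replicate block (0.018), and with 1 liver left out (-0.32 to 0.26, above 0 without normal rat 3 or model rat 3), for Srebf2 in voom (0.054) and with library totals (0.37), and for Mvd with library totals (0.43).

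In TA VS Model, 0 genes passed the adjusted threshold in edgeR, 541 in DESeq2, 169 in voom and 0 to 1 with 1 liver left out. By the study's thresholds 1571 genes became 2447 with library totals, 792 to 2792 with 1 liver left out (792 without model rat 1, 973 without TA rat 2, 2792 without model rat 3), and 889 without model rat 1 and TA rat 1. Of the 7 genes, 2 passed the adjusted threshold in DESeq2 and 1 in voom, and by the study's thresholds 5 passed in DESeq2 and in voom, 1 with library totals, 1 to 4 with 1 liver left out and 1 without model rat 1 and TA rat 1. Mvd turned to -0.21 with library totals and ranged from -0.29 to 0.96 with 1 liver left out, below 0 without TA rat 1.

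In TA VS Normal, the 32 genes past the adjusted threshold became 360 in DESeq2, 126 in voom, 56 with library totals, 76 without the filter, 14 with all 9 libraries and 203 with the replicate block, and 1 to 61 with 1 liver left out (4, 1 and 10 without normal rats 1, 2 and 3, 3 without TA rat 1 and 61 without TA rat 3). Of the 7 genes, 1 passed the study's thresholds in voom and with library totals, and 0 to 1 with 1 liver left out, which was Sqle without normal rat 3, TA rat 2 or TA rat 3. Insig1 turned to 0.16 in voom, 0.012 with library totals, and ranged from -0.85 to 0.67 with 1 liver left out, above 0 without normal rat 2 or TA rat 3. Mvd turned to -0.15 with the replicate block and ranged from -0.67 to 0.26 with 1 liver left out, below 0 without normal rat 3 or TA rat 1. Hmgcs1 ranged from -0.061 to 0.38 and Idi1 from -0.11 to 0.90, both below 0 without TA rat 1.

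With the replicate block, 2 of the 7 genes passed the study's thresholds when model and normal livers were compared and 3 in TA VS Model. In these 2 comparisons same-numbered livers correlated at 0.21, -0.0567 and -0.0525 and at 0.219, -0.0354 and 0.00667. A prior count of 0.5 in place of 2 on log2 CPM left the overlap of groups as it was for the 7 genes, but a prior count hardly moves levels of this size. In the deposited FPKM the overlap did change, as given above.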
